A study of Homo sapiens with 8 samples.

Results

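The 10 genes described here are long non-coding snoRNA host genes, GAS5, SNHG1, SNHG5, SNHG6, SNHG7, SNHG8, SNHG12, SNHG15, SNHG16 and ZFAS1. They were chosen by name from a table of 60332 genes, and all 10 passed the filter on low values, which kept the 15372 genes that reached 1 FPKM in 2 or more libraries. FPKM is fragments scaled to the length of the transcript and the mapped fragments of the library, a level per length. Expression was measured by poly-A RNA sequencing in SK-N-MC, a long-established line of Ewing sarcoma cells. The 8 libraries form 4 groups of 2, which the study calls biological duplicates. All cells carried dCas9-KRAB, a dead Cas9 fused to a repressor domain, delivered by lentivirus and selected as a pool rather than as a clone. Infection was at a multiplicity of 10, and selection used puromycin at 1 μg/ml. Cells were used within a limited number of passages after that selection. These steps were shared by all 8 libraries, so their effect on the host genes was not tested. Control cells carried the empty vector and were kept in normoxia or in hypoxia (1% O2 for 16 h). In eKD1 and eKD2 cells, 1 of 2 independent guides per line brought dCas9-KRAB to the GGAA-repeat enhancer of LOXHD1, a gene that EWSR1::FLI1 switches on in these tumors, and all 4 eKD libraries used are from hypoxia. A guide effect in normoxia was therefore not analysed here, and guide and line cannot be told apart in these data.

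A snoRNA host gene is transcribed to carry the small nucleolar RNAs in its introns, which are trimmed out after splicing and guide the chemical modification of ribosomal RNA. In a non-coding host the spliced exons remain as a polyadenylated RNA with short and poorly conserved reading frames. When ribosomes read these frames the RNA meets a premature stop and is degraded by nonsense-mediated decay, so the spliced RNA of several hosts is known to build up when translation or that decay pathway is blocked. Many host genes start with a run of pyrimidines, the 5′ terminal oligopyrimidine tract, which ribosomal protein genes share and through which translation follows growth signals. GAS5 is known from growth-arrested cells and as a decoy of the glucocorticoid receptor. Poly-A sequencing reads the spliced RNA and not the mature snoRNA.

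The first bases of 7 host genes are shown because they hold, or lack, the pyrimidine tract, and because these 7 passed the test in at least 1 comparison. Each window holds 30 bases before and 30 bases from the commonest annotated transcript start, read from the GRCh37 genome on the strand of the gene. That start was shared by 50 of 91 annotated transcripts for GAS5 and 61 of 89 for SNHG5. For SNHG1 it was 25 of 80, for SNHG8 5 of 15 and for ZFAS1 5 of 14. For SNHG12 it was 4 of 19 and for SNHG15 2 of 14. Capitals mark a C followed by at least 4 pyrimidines that begins within 10 bases of the start.
GAS5, chr1:173837098-173837157, minus strand: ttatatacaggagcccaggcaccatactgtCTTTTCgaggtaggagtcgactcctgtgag
ZFAS1, chr20:47895149-47895208, plus strand: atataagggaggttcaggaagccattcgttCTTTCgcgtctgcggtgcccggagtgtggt
SNHG8, chr4:119199883-119199942, plus strand: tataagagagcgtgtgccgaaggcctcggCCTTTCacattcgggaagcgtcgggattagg
SNHG12, chr1:28908356-28908415, minus strand: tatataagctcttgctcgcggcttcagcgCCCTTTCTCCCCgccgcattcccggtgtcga
SNHG1, chr11:62623328-62623387, minus strand: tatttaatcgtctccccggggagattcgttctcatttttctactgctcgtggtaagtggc
SNHG5, chr6:86388437-86388496, minus strand: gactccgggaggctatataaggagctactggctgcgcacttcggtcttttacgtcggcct
SNHG15, chr7:45026238-45026297, minus strand: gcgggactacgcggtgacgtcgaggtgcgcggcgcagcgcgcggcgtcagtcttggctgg

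The tract was found in 6 of the 9 windows read (66.7%), those of GAS5, SNHG7, SNHG8, SNHG12, SNHG16 and ZFAS1. It began at the start itself in GAS5 and ZFAS1, 1 base before it in SNHG8 and SNHG12 and at base 4 in SNHG16. In SNHG7 it began 10 bases before the annotated start and was 7 bases long, so it ended before that start. Of 14594 tested genes whose start was read, 30.6% held one, and of 38 protein-coding snoRNA hosts 60.5%. No window was read for SNHG6. The windows of SNHG1, SNHG5 and SNHG15 hold none under this rule, and the annotated start can lie some bases from the one these cells use. Other motifs were counted in the 300 bases from 250 before to 50 after the start, on both strands. The E-box (CACGTG), which MYC and related factors bind, was in 2 of 9 host promoters, SNHG7 and GAS5, and in 9.1% of all. The core bases of the hypoxia response element (ACGTG or GCGTG, the first of which lies inside the E-box) were in 8 of 9, all but SNHG5, and in 58.8% of all. The element TGATGNAA of ATF4, a factor of the stress response, was in 0 of 9 and in 2.4% of all. These are matches of letters and not measured binding.

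The genes lie on 9 chromosomes in GRCh37, the build of the files, and GENCODE lists each as a long non-coding RNA. GAS5 (ENSG00000234741) is on chromosome 1 from 173827697 to 173838020, minus strand, and SNHG12 (ENSG00000197989) on the same chromosome from 28905050 to 28909644, minus strand. SNHG1 (ENSG00000255717) is on chromosome 11 from 62619450 to 62623425 and SNHG15 (ENSG00000232956) on chromosome 7 from 45022618 to 45026560, both on the minus strand. SNHG5 (ENSG00000203875) is on chromosome 6 from 86360209 to 86388650 and SNHG6 (ENSG00000245910) on chromosome 8 from 67832796 to 67838633, both on the minus strand. SNHG7 (ENSG00000233016) is on chromosome 9 from 139615818 to 139622636, minus strand. SNHG8 (ENSG00000269893) is on chromosome 4 from 119199858 to 119206471, SNHG16 (ENSG00000163597) on chromosome 17 from 74553809 to 74667067 and ZFAS1 (ENSG00000177410) on chromosome 20 from 47894715 to 47916137, all on the plus strand. The kit does not mark strand, so reads of a host and of a gene on the opposite strand cannot be told apart where the exons overlap.

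The targeted gene and the hypoxia label could be checked in every library. LOXHD1 was at 156 and 169 FPKM in control normoxia, 93.0 and 91.1 in control hypoxia, 17.3 and 15.0 in eKD1 and 11.7 and 11.8 in eKD2. CA9, a carbonic anhydrase induced by HIF, was at 56.9 to 82.8 FPKM in the 6 hypoxia libraries and listed at 0 in normoxia. The 7 Ewing sarcoma markers listed were present in every library, from 10.8 FPKM (LIPI) upward. In hypoxia 5 of them were called lower, as were 16% of all tested genes. Of the markers of other cell types, the muscle factor MYOD1 was at 0.789 FPKM or less, the epithelial genes EPCAM and KRT8 at 2.86 to 6.81 and the collagen gene COL1A1 at 34.1 to 74.3. The leukocyte gene PTPRC was at 22.5 and 23.8 FPKM in normoxia and 4.87 to 14.3 in hypoxia, and its part in the host gene values was not tested. Column totals ran from 865107 to 1041457 FPKM and were lowest in the normoxia libraries. The table holds no read totals, so absolute depth is unknown. Read from the steps between low values, depth relative to the deepest library (control hypoxia replicate 1) ran from 55.7% in control normoxia replicate 2 to 96.3% in control hypoxia replicate 2.

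The host genes were abundant. Their summed level was 2338 and 2530 FPKM in control normoxia, 3152 and 2997 in control hypoxia, 2671 and 2617 in eKD1 and 3502 and 3483 in eKD2. This was 0.268% to 0.367% of the column total, and the 5 most abundant host genes made up 82.8% to 86.7% of the sum. In control normoxia the order by mean level was GAS5, SNHG6, SNHG1, ZFAS1, SNHG5, SNHG8, SNHG7, SNHG15, SNHG12 and SNHG16, and only GAS5 and SNHG6 had overlapping libraries among neighbors in that order. In control hypoxia ZFAS1 stood above SNHG1, SNHG12 came last and GAS5 and SNHG6 overlapped again. In eKD1 the libraries of ZFAS1 and SNHG1 overlapped, as did those of GAS5 and SNHG6. In eKD2 SNHG1 was the most abundant host gene, above GAS5 in both libraries, and the libraries of SNHG15 and SNHG7 overlapped, as did those of SNHG16 and SNHG12. SNHG1 made up 24.5% and 24.2% of the summed level in eKD2, against 14.0% to 18.7% in the other 6 libraries. GAS5 held 20.5% to 22.3% of the sum in all 8 libraries. Over the 8 libraries the highest value was 2.69 times the lowest for SNHG12, 2.35 times for SNHG1 and 2.07 times for SNHG15, and 1.43 to 1.72 times for the other 7.

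**Figure D1:**
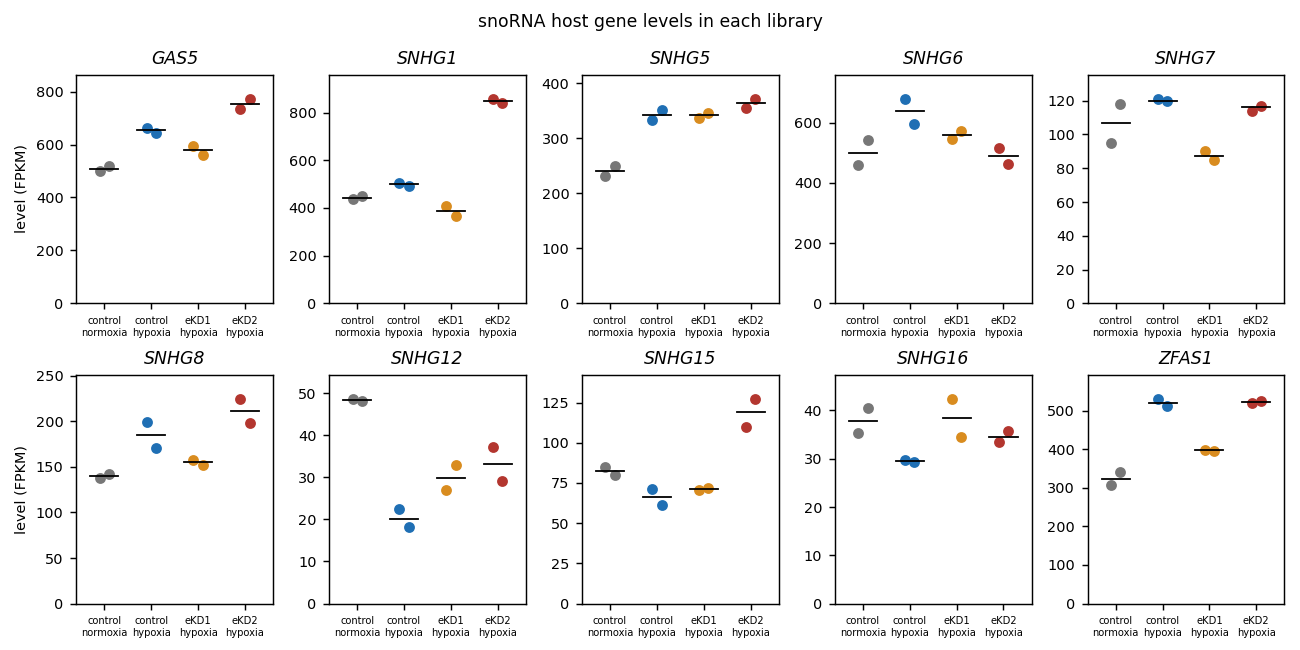
Level of each host gene in FPKM (linear axis from 0, a separate scale per gene) in the 8 libraries by group; points are libraries and bars the mean of 2. SNHG1 sits at 841 and 857 FPKM in eKD2 and at 365 to 505 in all other libraries, and SNHG12 at 48.1 and 48.5 in normoxia and 18.1 to 37.2 in hypoxia.

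The effect of hypoxia was read from control cells, 2 libraries against 2. In bulk RNA, fewer cells with a transcript and less of it per cell cannot be told apart. GAS5, SNHG1, SNHG5, SNHG8 and ZFAS1 rose and SNHG12 fell. Differences are given as the log2 change on the log2(FPKM + 1) scale with the standard error (SE), and genes with an adjusted p below 0.05 by limma are called. ZFAS1, which is transcribed next to ZNFX1 and carries the SNORD12 snoRNAs, was at 307 and 340 FPKM in normoxia and 529 and 512 in hypoxia. The hypoxia libraries lay well above the normoxia ones, with a log2 change of 0.69 (adjusted p 0.0099 by limma, SE 0.0666). SNHG5 was at 232 and 249 FPKM in normoxia and 333 and 351 in hypoxia, a log2 change of 0.51 (adjusted p 0.0131 by limma, SE 0.0596). GAS5 was at 501 and 518 FPKM in normoxia and 663 and 644 in hypoxia, a log2 change of 0.36 (adjusted p 0.0123 by limma, SE 0.0409). In both genes the 2 groups were further apart than their duplicates. SNHG8, a host of an H/ACA snoRNA, was at 138 and 142 FPKM in normoxia and 199 and 171 in hypoxia, a log2 change of 0.39 (adjusted p 0.0435 by limma, SE 0.0893). SNHG1, host of many box C/D snoRNAs, was at 436 and 450 FPKM in normoxia and 505 and 494 in hypoxia, the smallest called change at 0.17 (adjusted p 0.0463 by limma, SE 0.0405).

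SNHG12 went the other way. It was at 48.5 and 48.1 FPKM in normoxia and 22.4 and 18.1 in hypoxia, 41.9% of the normoxia mean. Its log2 change was -1.22 (adjusted p 0.0109 by limma, SE 0.129) and its 95% interval -1.59 to -0.86. The other 4 did not pass the test. SNHG6 was at 459 and 543 FPKM in normoxia and 679 and 596 in hypoxia, with a log2 change of 0.35 and a 95% interval of 0.02 to 0.67. SNHG7 was at 95.0 and 118 FPKM in normoxia and 121 and 120 in hypoxia, with an interval of -0.16 to 0.53. For SNHG15 the values were 84.8 and 79.9 against 71.5 and 61.5 FPKM (interval -0.59 to -0.03), and for SNHG16, which hosts the SNORD1 family, 35.3 and 40.6 against 29.8 and 29.3 FPKM (interval -0.63 to -0.07). These 2 genes had lower values in both hypoxia libraries than in either normoxia library.

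In hypoxia 6 of the 10 host genes were called, 5 higher and 1 lower, where 32.2% of all tested genes were called, 16.2% higher and 16% lower. Both hypoxia libraries lay outside the normoxia pair for 10 of 10 host genes (7 higher, 3 lower), and for 70.4% of all tested genes. The median log2 change of the host genes was 0.27 and that of all genes 0.01. The scaling of the libraries bears on these directions. With all column totals set equal, the median of all genes moved to -0.19 and the share of calls that were higher from 50.3% to 28.4%. On that scale ZFAS1 (0.45) and SNHG5 (0.26) were still called higher and SNHG12 (-1.46) lower, GAS5 (0.12) and SNHG8 (0.15) were no longer called, and SNHG1 (-0.07) changed sign. SNHG15 (-0.55) and SNHG16 (-0.58) were called lower on that scale. ZFAS1, SNHG5 and SNHG12 were called under all 9 alternatives that left out no library. Under the same 9, GAS5 was called in 7, SNHG8 in 5 and SNHG1 in 4. At an unadjusted p under 0.05 by limma were 9 of 10 host genes and 45.9% of all genes with all 4 libraries kept. The calls did not hold with any 1 library left out, with the lone library assumed to vary like the pair it was set against. The log2 change was then 0.61 to 0.76 for ZFAS1, 0.45 to 0.56 for SNHG5 and -1.37 to -1.07 for SNHG12. It was 0.34 to 0.38 for GAS5, 0.29 to 0.50 for SNHG8 and 0.15 to 0.20 for SNHG1.

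**Figure D2:**
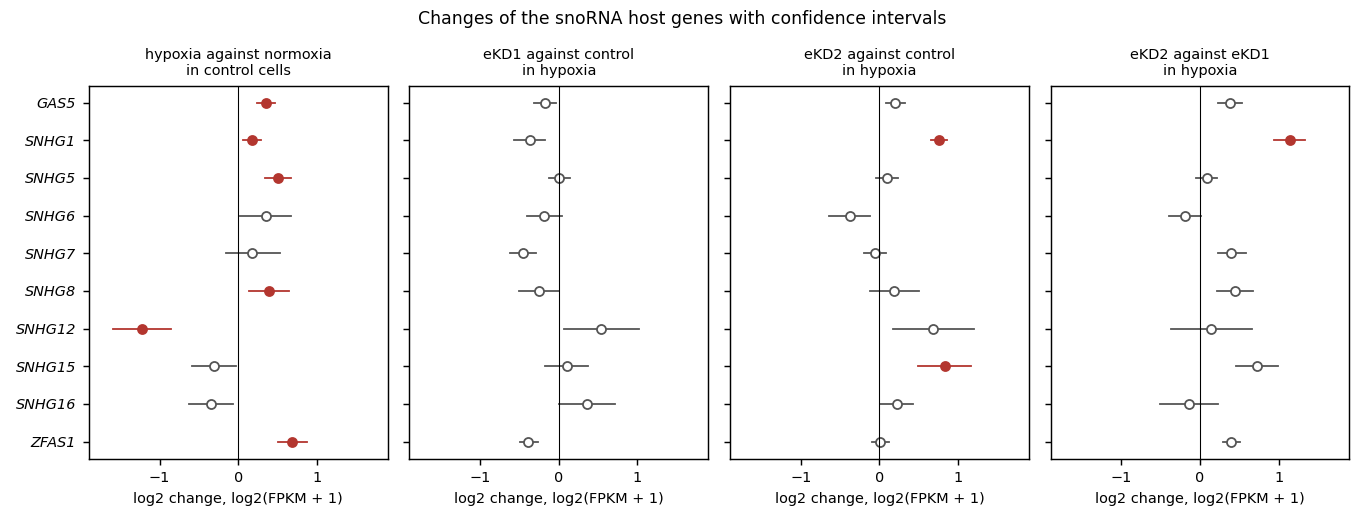
Log2 change of each host gene with its 95% interval (limma, log2(FPKM + 1) scale) in the 4 comparisons; filled red points are called at an adjusted p under 0.05 and open points are not. In hypoxia 5 points are called on the right and SNHG12 (-1.22) on the left, and in eKD2 SNHG1 (0.76) and SNHG15 (0.83) are called.

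**Figure D3:**
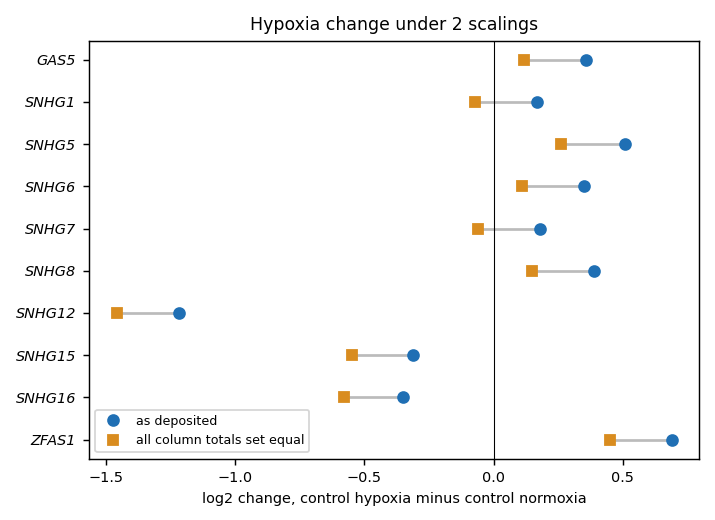
Log2 change of each host gene in control cells, hypoxia minus normoxia, with the FPKM as deposited (circles) and with all column totals set equal (squares). Every host gene moves left with equal totals, and SNHG1 and SNHG7 cross 0, from 0.17 to -0.07 and from 0.18 to -0.06.

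eKD1 cells were compared with control cells in hypoxia, and 0 of 10 host genes passed the test. limma called 10 of 15372 genes, 0.0651% of those tested, in this comparison. At an unadjusted p under 0.05 were 6 of 10 host genes and 21.7% of all genes. ZFAS1 had the smallest p among the host genes, at 399 and 396 FPKM in eKD1 against 529 and 512 in control hypoxia, a log2 change of -0.39 (adjusted p 0.102 by limma, SE 0.04). SNHG7 was at 90.1 and 84.6 FPKM in eKD1 against 121 and 120, a log2 change of -0.46 (adjusted p 0.106 by limma, SE 0.0581). SNHG1 was at 407 and 365 FPKM against 505 and 494, a log2 change of -0.37 (adjusted p 0.122 by limma, SE 0.0677). The eKD1 libraries of these 3 genes all lay below both control libraries. GAS5 was at 594 and 562 FPKM, SNHG6 at 546 and 572 and SNHG8 at 158 and 152, also below both control libraries. SNHG12 was at 26.9 and 33.0 FPKM and SNHG16 at 42.3 and 34.4, above both. SNHG5, at 337 and 346 FPKM against 333 and 351, had a log2 change of 0.00 (95% interval -0.13 to 0.14), and SNHG15, at 70.6 and 71.7 against 71.5 and 61.5, had an interval of -0.17 to 0.37. The groups did not overlap for 8 of 10 host genes (2 higher, 6 lower) and for 53.6% of all genes. A shared fit of all 8 libraries called 2 host genes, SNHG1 (adjusted p 0.0265) and ZFAS1 (adjusted p 0.0237), and 761 genes in all. With any 1 library left out 0 were called and 2 to 5 had an unadjusted p under 0.05.

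In eKD2 cells SNHG1 and SNHG15 rose against control cells in hypoxia. SNHG1 was at 857 and 841 FPKM in eKD2 against 505 and 494 in control hypoxia. Both eKD2 libraries were far above every other library, and the log2 change was 0.76 (adjusted p 0.0207 by limma, SE 0.0351), 1.70 times the control mean. SNHG15, a short-lived host RNA of 3.94 kb of genomic span, was at 110 and 127 FPKM against 71.5 and 61.5. Its log2 change was 0.83 (adjusted p 0.0412 by limma, SE 0.119), 1.78 times the control mean. Called host genes were 2 of 10, both higher, and 9.61% of all tested genes were called, 5.8% higher.

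The other 8 were not called in eKD2. GAS5 was at 735 and 772 FPKM against 663 and 644 (log2 change 0.20, 95% interval 0.08 to 0.33) and was called on the scale of equal totals (0.31, adjusted p 0.0322). SNHG12 was at 37.2 and 29.1 FPKM against 22.4 and 18.1 (interval 0.17 to 1.20), still below its normoxia level in both libraries. SNHG6 was at 515 and 464 FPKM against 679 and 596, with an interval of -0.64 to -0.12. ZFAS1, at 520 and 526 FPKM against 529 and 512, had the narrowest interval around 0 (-0.10 to 0.12). SNHG5 was at 355 and 371 FPKM (interval -0.05 to 0.23), SNHG7 at 114 and 117 (-0.19 to 0.08), SNHG8 at 224 and 198 (-0.12 to 0.50) and SNHG16 at 33.4 and 35.7 (0.01 to 0.43). The groups did not overlap for 8 of 10 host genes (6 higher, 2 lower) and for 62.1% of all genes. The share of all calls that were higher was 60.3%, 47.4% with median-of-ratios rescaling and 77.5% with equal totals, and SNHG1 and SNHG15 were called under all 3. At an unadjusted p under 0.05 by limma were 6 of 10 host genes and 32.8% of all genes with all 4 libraries kept. The calls did not hold with any 1 library left out, with SNHG1 then at 0.75 to 0.78 and SNHG15 at 0.72 to 0.93. Without the variance trend 0 were called and 4 had an unadjusted p under 0.05.

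The eKD lines carry different guides to the same enhancer, and SNHG1 differed between them. It was at 857 and 841 FPKM in eKD2 and 407 and 365 in eKD1, a log2 change of 1.14 (adjusted p 0.0461 by limma, SE 0.0686), 2.20 times the eKD1 mean. SNHG1 was called in this comparison where 0.403% of all genes were called, 0.286% higher. Control hypoxia lay between the lines, below eKD2 and above eKD1 in every library. For the other 9 the test was not passed, with SNHG15 at 110 and 127 against 70.6 and 71.7 FPKM (log2 change 0.73, adjusted p 0.079 by limma), ZFAS1 at 520 and 526 against 399 and 396 (0.40, adjusted p 0.0689 by limma) and GAS5 at 735 and 772 against 594 and 562 (0.38, adjusted p 0.0854 by limma). The groups did not overlap for 8 of 10 host genes, 7 higher and 1 (SNHG6) lower in eKD2, and for 55.2% of all genes. The median log2 change was 0.39 for the host genes and 0.05 for all genes. At an unadjusted p under 0.05 by limma were 6 of 10 host genes and 23.6% of all genes. The call of SNHG1 was lost without a filter on low values and without the variance trend. It was also lost with any 1 library left out, where the log2 change of SNHG1 was 1.06 to 1.22. The first 3 comparisons share the control hypoxia libraries and the last shares the eKD libraries, so their changes are not independent.

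SNHG1 starts 51 bases from SLC3A2 on the opposite strand. SLC3A2 encodes the heavy chain of CD98, which pairs with light chains such as SLC7A5 to carry amino acids across the plasma membrane. SLC3A2 was at 196 and 198 FPKM in control normoxia, 230 and 231 in control hypoxia, 152 and 165 in eKD1 and 391 and 409 in eKD2. The group means stood in the same order in both genes, with eKD1 lowest, then control normoxia, control hypoxia and eKD2. SLC3A2 was called higher in eKD2 against control (log2 change 0.79, adjusted p 0.027 by limma, SE 0.0428) and in eKD2 against eKD1 (1.33, adjusted p 0.0331 by limma, SE 0.0651). In eKD1 against control its log2 change was -0.54 (adjusted p 0.102 by limma, SE 0.0607). In hypoxia it was called at 0.23 (adjusted p 0.0283 by limma, SE 0.0413), which became -0.01 with equal totals. That scaling uses 1 factor per library, so all well-expressed genes shift by a similar amount under it. The annotation places the transcripts back to back and without overlap.

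**Figure D4:**
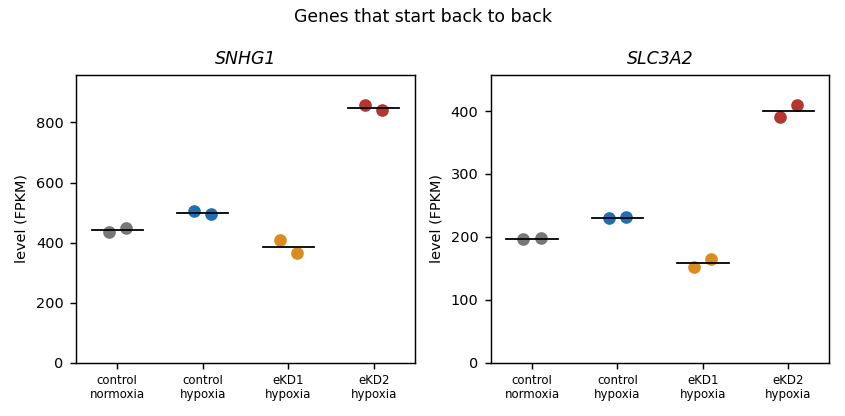
Levels of SNHG1 and of SLC3A2, which starts 51 bases away on the opposite strand, in FPKM (linear axes from 0) by group; points are libraries and bars the mean of 2. In both genes the eKD2 libraries are highest (841 and 857 FPKM, 391 and 409 FPKM) and the eKD1 libraries lowest (365 and 407 FPKM, 152 and 165 FPKM).

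For 7 host genes, 12 of 26 annotated genes that overlap them or start within 2 kb on the opposite strand were tested. TRNAU1AP, which takes part in selenocysteine insertion and overlaps SNHG12 from the other strand, was at 27.5 and 26.0 FPKM in normoxia and 47.7 and 44.8 in hypoxia. It was called higher in hypoxia (log2 change 0.77, adjusted p 0.0108 by limma, SE 0.0802), while SNHG12 was called lower. ZNFX1, on the other strand of ZFAS1, was at 6.9 and 6.99 FPKM in normoxia and 4.49 and 4.05 in hypoxia and was called lower (-0.59, adjusted p 0.0419 by limma, SE 0.133), while ZFAS1 was called higher. DIPK1B, a kinase-like protein gene across from SNHG7, was called higher in hypoxia (0.67, adjusted p 0.0105 by limma, SE 0.0674). These 3 calls kept their direction and stayed called with equal totals. ZBTB37 and GAS5-AS1, which overlap GAS5 from the other strand, were at 3.9 FPKM or less and neither was called in any of the 4 comparisons. Neither was ENSG00000271793, which overlaps SNHG5, or ENSG00000267546, which starts 44 bases from SNHG16.

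Few snoRNAs themselves could be read. A set of 6 annotated snoRNAs inside a host gene had a row matched by position, SNORD78 in GAS5, SNORD99 in SNHG12, SNORD1B in SNHG16 and SNORD12, SNORD12B and SNORD12C in ZFAS1. The first 3 were listed at 0 in all 8 libraries. The SNORD12 genes were above 0 in 2, 2 and 3 libraries, at 135 to 579 FPKM, and 0 of the 6 was above 0 in both libraries of any group. These RNAs are 65 to 91 bases long, so a value per length rests on few reads, and no fold is given.

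Other non-coding host genes were read from a list of 20. Of 19 tested, 3 were called higher and 8 lower in hypoxia, with a median log2 change of -0.21, and 10 were called lower and 2 higher with equal totals. Among all tested genes 16.2% were called higher and 16% lower, and with equal totals 1566 and 3944 of 15372. SNHG4 was at 76.1 and 83.9 FPKM in normoxia and 27.9 and 23.2 in hypoxia (log2 change -1.61, adjusted p 0.00809 by limma, SE 0.123). SNHG11 was at 18.5 and 22.5 FPKM against 9.81 and 9.32 (-1.02, adjusted p 0.0158 by limma, SE 0.136). EPB41L4A-AS1, host of SNORA13, was at 55.4 and 79.5 FPKM in normoxia and 156 and 155 in hypoxia and rose (1.22, adjusted p 0.0212 by limma, SE 0.191). In eKD2 against control 2 were called higher and 2 lower, where 9.61% of all genes were called, 5.8% higher. SNHG17 was at 113 and 121 FPKM in eKD2 and 38.6 and 40.9 in control hypoxia (1.53, adjusted p 0.0207 by limma, SE 0.07), a larger value than that of any of the 10. SNHG11 was at 28.0 and 23.7 FPKM in eKD2 (1.34, adjusted p 0.0287 by limma, SE 0.122), and SNHG10 fell to 11.5 and 10.3 FPKM from 25.1 and 34.4 (-1.36, adjusted p 0.0385 by limma, SE 0.187; 0.088 with the shared fit). The median was -0.10 in eKD1 against control and -0.13 between the lines. Differences between lists were not tested.

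Protein-coding genes also carry snoRNAs, above all ribosomal protein and translation factor genes. Of 40, 26 were called higher and 11 lower in hypoxia, with a median log2 change of 0.54. Among all tested genes 16.2% were called higher and 16% lower. Split after the values were seen, the 23 ribosomal protein genes among them were all called higher, at 0.48 to 0.83, and also with equal totals (0.24 to 0.59). Of the other 17, 3 were called higher and 11 lower, among them EEF2, the elongation factor that moves the ribosome along (0.85, adjusted p 0.0252 by limma, SE 0.146), and EIF4G1, the scaffold of the cap-binding complex (-0.95, adjusted p 0.00653 by limma, SE 0.0436). PPAN, a ribosome assembly factor, was called lower (-1.08, adjusted p 0.0188 by limma, SE 0.158). In eKD2 against control 1 of the 40 was called higher and 21 lower, 18 of the latter ribosomal protein genes. Among all 15372 tested genes 891 were called higher and 586 lower there. RPL7A was at 1951.2 and 1947.6 FPKM in eKD2 and 2814.7 and 2918.6 in control hypoxia (-0.56, adjusted p 0.0273 by limma, SE 0.0334), and RPL21 changed by -0.56 (adjusted p 0.0284 by limma, SE 0.0493). HSPA8, a heat shock cognate chaperone that hosts several snoRNAs, was at 639 and 679 FPKM in eKD2, 1737.7 and 1687.0 in control hypoxia and 2244.2 and 2148.8 in eKD1. It was called lower in eKD2 against control (-1.38, adjusted p 0.012 by limma, SE 0.0461) and against eKD1 (-1.74, adjusted p 0.0205 by limma, SE 0.0526), the 1 call of the 40 in that comparison. In eKD1 against control 32 of 40 had a value below 0. Ribosomal protein genes have many processed copies in the genome, so their FPKM can depend on how shared reads were placed.

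**Figure D5:**
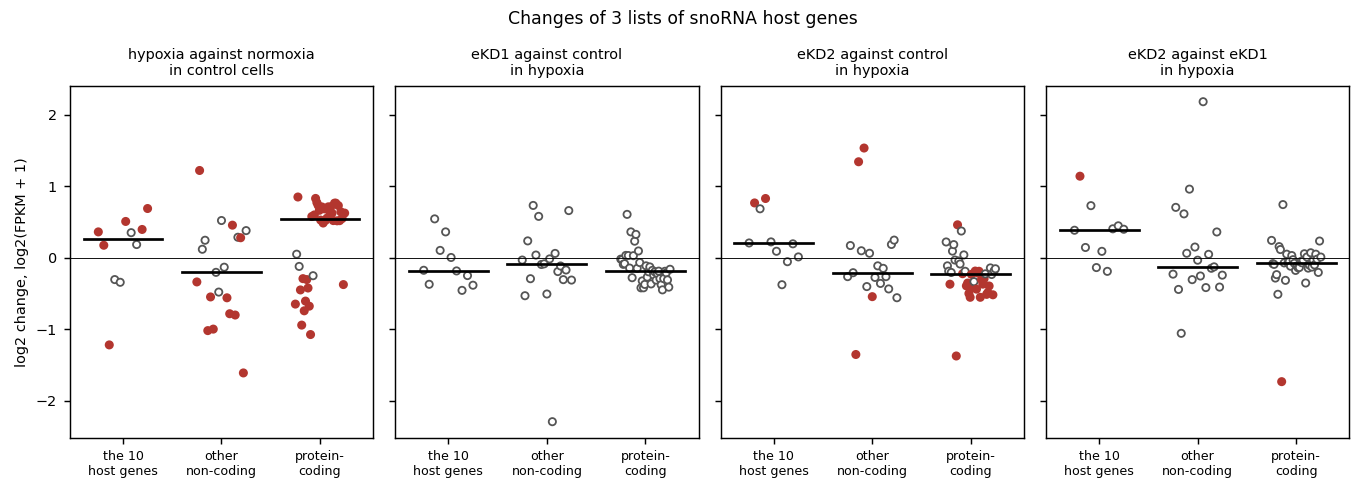
Log2 change (log2(FPKM + 1) scale) of each tested gene of 3 lists in the 4 comparisons, the 10 non-coding host genes, 19 other non-coding hosts and 40 protein-coding hosts; filled red points are called and black bars are list medians. In hypoxia the medians are 0.27, -0.21 and 0.54, and in eKD2 against control 0.20, -0.21 and -0.23.

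The genes of the decay pathway were read beside their known targets. Of 14 decay factors, 3 were called lower in hypoxia and 0 higher (median log2 change -0.14, 6 lower with equal totals), where 16% of all genes were called lower and 16.2% higher. SMG9, a partner of the SMG1 kinase that phosphorylates UPF1, was at 84.2 and 81.8 FPKM in normoxia and 28.6 and 30.2 in hypoxia (-1.47, adjusted p 0.00653 by limma, SE 0.0678). SMG8 (-0.49, adjusted p 0.0453 by limma, SE 0.114) and SMG1 (-0.47, adjusted p 0.0373 by limma, SE 0.0981) were the others. In eKD2 against control SMG9 was the 1 factor called, at 67.5 and 83.7 FPKM (1.33, adjusted p 0.03 by limma, SE 0.128). The exon junction complex marks spliced junctions for decay. Of its 7 genes MAGOHB (-1.65, adjusted p 0.0187 by limma, SE 0.241) and MAGOH (-0.79, adjusted p 0.0132 by limma, SE 0.0937) were called lower in hypoxia. With equal totals 4 of the 7 were called lower and all 7 had values below 0. In eKD2 MAGOHB was called higher (0.97, adjusted p 0.0284 by limma, SE 0.0853), and RNPS1 (-0.54) and RBM8A (-0.49) lower.

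Of 14 coding genes with transcripts known as decay targets, 4 were called higher and 5 lower in hypoxia (median 0.05). In eKD2 against control 4 were called higher and 1 lower (median 0.18). Among all tested genes 16.2% were called higher and 16% lower in hypoxia, and 9.61% were called in eKD2 against control. Values are per gene, so a transcript form that is a decay target was not read apart from the other forms of its gene. ATF3, a stress-induced transcription factor, was at 7.27 and 5.31 FPKM in normoxia, 36.4 and 38.0 in control hypoxia, 29.9 and 38.6 in eKD1 and 180 and 151 in eKD2. DDIT3, the CHOP factor of the unfolded protein response, was at 40.9 and 39.3 FPKM in normoxia, 141 and 136 in control hypoxia, 55.8 and 49.1 in eKD1 and 198 and 205 in eKD2. Both were called higher in hypoxia and in eKD2 against control, and DDIT3 also between the lines (1.92, adjusted p 0.0273 by limma, SE 0.0846). The 5 called lower in hypoxia, named after their values were seen, were NAT9 and the splicing factor genes SRSF2, SRSF3, SRSF7 and TRA2B. GADD45A, a stress and growth arrest gene, rose in hypoxia from 4.34 and 3.88 to 15.3 and 16.2 FPKM (1.71, adjusted p 0.00809 by limma, SE 0.124). The splicing factor gene SRSF2 fell in eKD2 to 198 and 211 FPKM from 340 and 308 (-0.66, adjusted p 0.0312 by limma, SE 0.072) and was the other call between the lines, at 378 and 375 FPKM in eKD1 (-0.88, adjusted p 0.0461 by limma, SE 0.0531). ATF3, DDIT3 and GADD45A are also stress-response genes, and what part of their change was tied to decay was not tested.

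Of 16 genes that control the start of translation, 6 were called higher and 5 lower in hypoxia (4 and 6 with equal totals). In eKD2 against control 4 were called higher and 0 lower. Among all tested genes 16.2% were called higher and 16% lower in hypoxia. In eKD2 against control 9.61% of all genes were called, 5.8% higher. DDIT4, an inhibitor of mTORC1 induced by hypoxia, was at 7.53 and 7.58 FPKM in normoxia and 486 and 477 in control hypoxia (5.82, adjusted p 0.0014 by limma, SE 0.0566). SESN2, a leucine sensor that restrains mTORC1, was at 2.27 and 3.19 FPKM in normoxia, 12.1 and 14.0 in control hypoxia, 5.45 and 5.4 in eKD1 and 28.9 and 29.0 in eKD2. PPP1R15A, which brings the phosphatase to eIF2, was at 15.4 and 14.4, 37.3 and 39.0, 21.8 and 24.7 and 98.3 and 96.2 FPKM in the same groups. SESN2 and PPP1R15A were called higher in hypoxia, in eKD2 against control and in eKD2 against eKD1. The 5 called lower in hypoxia, also named after their values were seen, were EIF2AK2, EIF2S1, EIF4E, MTOR and LARP1. LARP1, which binds the pyrimidine tract of host and ribosomal protein RNAs, was at 338 and 355 FPKM in normoxia and 141 and 169 in control hypoxia (-1.16, adjusted p 0.00929 by limma). In eKD2 it was at 308 and 256 FPKM and called higher than in control hypoxia (0.86, adjusted p 0.0488 by limma, SE 0.142), a call lost with median-of-ratios rescaling (adjusted p 0.0511). EIF4EBP1, the inhibitor of the cap-binding protein, was at 916 and 966 FPKM in eKD2 and 558 and 567 in eKD1 (0.74, adjusted p 0.0461 by limma, SE 0.0466), the third call between the lines. That call was lost with median-of-ratios rescaling (adjusted p 0.0522) and with equal totals (adjusted p 0.0512).

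Of 14 genes for proteins that coat snoRNAs, read as RNA, 8 were called lower and 2 higher in hypoxia (median -0.56). With equal totals 9 were called lower and 1 higher. Among all tested genes 16% were called lower and 16.2% higher, and with equal totals 3944 and 1566 of 15372. GAR1 of the H/ACA particle was at 72.4 and 67.8 FPKM in normoxia and 28.5 and 27.9 in hypoxia (-1.28, adjusted p 0.00679 by limma, SE 0.0715), RUVBL1, an assembly ATPase, changed by -1.06 (adjusted p 0.00665 by limma, SE 0.0527) and NOP58 of the box C/D particle by -0.88 (adjusted p 0.00707 by limma, SE 0.0518). In eKD2 against control 2 were called higher and 2 lower, with RUVBL1 at 0.74 (adjusted p 0.028 by limma, SE 0.0624), GAR1 at 0.66 (adjusted p 0.0303 by limma, SE 0.0642) and NHP2 at -0.63 (adjusted p 0.0421 by limma, SE 0.0929). With equal totals 5 were called higher and 0 lower, where 1478 of all genes were called higher and 430 lower. On that scale NHP2 was no longer called (adjusted p 0.051 by limma).

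In eKD1 against control limma called 0 genes in each of these 7 lists. At an unadjusted p under 0.05 were 8 of 19 other non-coding hosts, 28 of 40 protein-coding hosts, 5 of 14 decay factors, 4 of 7 exon junction genes, 6 of 14 decay targets, 6 of 16 translation genes and 7 of 14 snoRNP proteins, and the shared fit of 8 libraries called 3, 18, 1, 0, 3, 5 and 4 of them in the same order. Of all tested genes 21.7% had an unadjusted p under 0.05 in eKD1 against control, and 23.6% between the lines. Between the lines limma called 0 of the other non-coding hosts, decay factors, exon junction genes and snoRNP proteins. There 6, 4, 3 and 4 of them had an unadjusted p under 0.05, and the shared fit called 3, 0, 2 and 3. Of all 15372 tested genes the shared fit called 761 in eKD1 against control, where the separate fit called 10. Between the lines it also called more of all genes than the separate fit.

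The host genes did not follow a single profile. On the log2 scale over the 8 libraries, which come from 4 groups, each gene was set against the mean standardised profile of the other 9. Pearson's r was 0.90 for GAS5, 0.90 for SNHG8, 0.86 for SNHG1 and 0.75 for ZFAS1, between 0.47 and 0.53 for SNHG15, SNHG5 and SNHG7, and negative for SNHG6 (-0.21), SNHG16 (-0.41) and SNHG12 (-0.44). The 8 tested genes outside the list that lay closest to the mean profile of all 10 were CTBS, PPFIBP1, ZFAND6, ASTN2, ZBTB10, B3GALNT1, SARNP and IRF2BP2, with r from 0.959 to 0.978 over the same 8 libraries. The closest, CTBS, was at 5.32 and 6.28 FPKM in control normoxia, 7.15 and 5.86 in control hypoxia, 6.11 and 5.55 in eKD1 and 8.68 and 8.22 in eKD2. IRF2BP2 was at 23.6 and 25.6, 39.1 and 35.0, 33.3 and 29.7 and 67.8 and 69.9 FPKM in the same order. These correlations describe 4 group means and their spread and carry no test.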

How the data were processed

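RNA of 8 SK-N-MC libraries was poly-A selected with an unstranded kit and sequenced as single 75-base reads. The authors aligned reads with STAR to GRCh37 (hg19), estimated gene values with cufflinks and normalized them with Cuffnorm, and the deposited table holds FPKM of 60332 genes, 1 column per library. The between-library scaling of Cuffnorm is not given in the sources used here. The authors' own test, DESeq2, needs counts, so limma 3.58.1 in R 4.3.3 was used. FPKM of short genes and of genes sharing reads are uncertain, and intervals cover only the spread between libraries.

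Values were analysed as log2(FPKM + 1), which understates the changes of low genes. The filter kept genes at 1 FPKM or more in 2 or more libraries (15372), and 33177 were at 0 everywhere. Each comparison of 2 against 2 libraries was fitted alone (lmFit, eBayes with a variance trend), two-sided, with Benjamini-Hochberg adjustment over all genes tested. An exact permutation test of 2 against 2 cannot go below p = 0.333. The fit was tested on simulated data. The pseudocount was also set to 0.1, and the other alternatives were no filter, a mean of at least 5 FPKM, median-of-ratios rescaling, equal totals, a shared fit of 8 libraries, a replicate block, no variance trend, short RNAs left out and 1 library left out. Positions, transcript starts and sequences came from GENCODE 44 on GRCh37 with the GRCh37 genome.

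The host genes and lists were chosen with earlier results of these data known. Named are the 10 host genes, at most 3 called genes per other list and comparison with the largest change (groups not overlapping, higher group at 5 FPKM or more), genes that overlap a host gene or start within 2 kb on the opposite strand, and the 8 genes (mean of at least 5 FPKM) closest to the mean profile. The values of 1 of these neighboring genes are not reported here. PECAM1 of the other cell type markers was not analysed here.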

Additional observations from a re-analysis of the deposited data

Results flagged for a closer look

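SNHG1 and GAS5 drew attention because the eKD lines stood on opposite sides of the control. The groups did not overlap for 53.6% of all tested genes in eKD1 against control and 62.1% in eKD2 against control. The share of all genes with the lines on opposite sides is not given here. With the values as deposited, GAS5 was called against control in neither line. For SNHG1 both eKD2 libraries lay above and both eKD1 libraries below the control hypoxia libraries, and the direct comparison of the lines was called (log2 change 1.14, limma adjusted p 0.0461). For GAS5 the same held, with 735 and 772 FPKM in eKD2, 663 and 644 in control hypoxia and 594 and 562 in eKD1, but the direct comparison was not called (log2 change 0.38, limma adjusted p 0.0854). Guide and line cannot be told apart. Groups of 2 libraries are too small for a search for single outlying libraries.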

How the results depend on the processing

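Of 360 values for single host genes under alternatives that keep all libraries of a comparison, 325 kept their direction and side of the threshold, 18 lost the call, 12 gained it and 5 changed sign. The sign changes were those of SNHG1 (-0.07) and SNHG7 (-0.06) in hypoxia with equal totals, SNHG5 in eKD1 (-0.02) and ZFAS1 in eKD2 against control (-0.06) with median-of-ratios rescaling, and SNHG7 in eKD2 against control (0.05) with equal totals. None of these 5 was a called change except that of SNHG1. With 1 library left out, 117 of 160 were the same, 36 lost the call and 7 changed sign, in 5 results whose ranges were -0.04 to 0.04 (SNHG5 in eKD1), -0.01 to 0.21 (SNHG15 in eKD1), -0.01 to 0.03 (ZFAS1 in eKD2 against control), -0.03 to 0.31 (SNHG12 between the lines) and -0.28 to 0.0048 (SNHG16 between the lines).

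The number of host genes called in hypoxia (6 as reported) was 4 with no filter, 5 with equal totals and 3 without the variance trend. In eKD1 (0) it was 2 with the shared fit. In eKD2 against control (2) it was 1 with no filter, 3 with equal totals, 4 with the shared fit and 0 without the variance trend (4 at an unadjusted p under 0.05). Between the lines (1) it was 0 with no filter, 5 with the shared fit and 0 without the variance trend (6 at an unadjusted p under 0.05 in both of these). With any 1 library left out the number was 0 to 0 in all 4 comparisons, where each fit has 1 residual degree of freedom among samples.

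The number of all genes called in hypoxia (4946) was 3024 with no filter. In eKD1 (10) it was 206 with no filter, 761 with the shared fit, 6 without the variance trend and 6 without short RNAs. In eKD2 against control (1477) it was 853 with no filter, 2601 with the shared fit and 28 without the variance trend. Between the lines (62) it was 260 with no filter, 105 with a mean of at least 5 FPKM, 1391 with the shared fit and 5 without the variance trend. With 1 library left out it was 0 to 0 throughout.

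Whether the replicate numbers mark pairs is not known. The deviations of same-numbered libraries correlated at -0.05 to 0.04 over all tested genes. This shows no strong shared pattern but cannot tell whether same-numbered libraries were prepared together. With the numbers as a block, 4 host genes were called in hypoxia and 0 in the other 3 comparisons (5 to 6 at an unadjusted p under 0.05), and 2570 genes in all were called in hypoxia and 0 in the others. Causes of these differences were not tested, and depth limits cannot be given without counts.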
